A study of Mus musculus with 15 samples.

Results

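10 genes known from osteoclasts were followed in MH-S cells, a mouse alveolar macrophage line, after contact with calcium phosphate (CaP) or silica (SiO2) microrods. The 10 members were *Tnfrsf11a*, *Oscar*, *Nfatc1*, *Dcstamp*, *Ocstamp*, *Atp6v0d2*, *Acp5*, *Ctsk*, *Itgb3* and *Src*, found by their Ensembl identifiers among the 78317 rows of the count table. *Atp6v0d2* was chosen from its own values in these libraries, namely its higher level with both kinds of rod and its higher level with CaP than with SiO2 microrods, so those values are given as a description and were not tested. The other 9 are genes known from osteoclasts, listed when earlier results of these data were known.

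The MH-S line, which was immortalised with SV40, was kept for 24 h in medium alone (M0 control), with CaP or SiO2 microrods at 0.1 mg/mL, with 20 ng/mL IFN-γ plus 1 µg/mL of LPS (M1), or with 20 ng/mL of IL-4 (M2). Each of the 5 groups had 3 libraries, made from bulk RNA with the Smart-seq2 protocol. Both kinds of rod carried alginate, protamine and carboxymethyl chitosan besides their mineral, each rod library used a separately prepared particle batch, and all groups were the same transformed line, so no osteoclast culture and no RANKL treatment was among the groups. The p-values measure the spread between these wells of one line.

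Osteoclasts arise when cells of the monocyte and macrophage lineage receive M-CSF and RANKL. RANKL binds the receptor RANK, encoded by *Tnfrsf11a*, and with co-stimulation through receptors such as OSCAR it raises and activates the transcription factor NFATc1. NFATc1 then drives genes for cell fusion (*Dcstamp*, *Ocstamp*, *Atp6v0d2*), for acid and enzyme release onto bone (*Ctsk*, *Acp5*) and for attachment (*Itgb3*, *Src*). Several of these genes are also used by macrophages that form multinucleated giant cells.

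Total counts ranged from 8459643 to 68750050 per library, so that 1 count was worth between 0.0143 and 0.131 CPM, the count relative to the scaled library size. All 6 macrophage markers were above 1 CPM in every group, with summed levels of 1420 to 3637 CPM. Of the 7 alveolar macrophage markers, *Siglecf*, *Car4* and *Chil3* were at the floor of 3 counts or fewer per library in M0, and the list summed to 3.00 to 6.17 CPM over all libraries. Fibroblast and epithelial markers summed to 0.229 CPM or less in every library, and of the 5 osteoblast markers only *Runx2* was above 1 CPM. In bulk RNA, a change in the number of cells that express a gene and a change in RNA per cell cannot be told apart.

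Promoter sequences were at hand for 5 of the 10 members (*Acp5*, *Ctsk*, *Oscar*, *Src* and *Tnfrsf11a*), as the 250 bases before a RefSeq start in build GRCm38.p6. The entries for *Atp6v0d2*, *Dcstamp*, *Ocstamp*, *Nfatc1* and *Itgb3* are named only. Those shown are those of *Ctsk* and *Oscar*, which stood highest with CaP microrods, and that of *Acp5*, which stood highest in M1. Capitals mark the NFAT core, GGAAA as searched, and the E-box CATGTG, each also where it lies on the opposite strand and so reads as its reverse complement. The windows are chr3:95498960-95499209 on the plus strand for *Ctsk*, chr7:3616158-3616407 on the minus strand for *Oscar* and chr9:22130599-22130848 on the minus strand for *Acp5*. Of 3 *Acp5* starts, the one shown has the lowest coordinates and so lies furthest downstream.
Ctsk promoter: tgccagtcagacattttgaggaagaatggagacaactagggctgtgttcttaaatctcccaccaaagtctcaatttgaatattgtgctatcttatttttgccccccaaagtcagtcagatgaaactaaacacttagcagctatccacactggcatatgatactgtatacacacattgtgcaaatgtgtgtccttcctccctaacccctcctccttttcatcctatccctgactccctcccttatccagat
Oscar promoter: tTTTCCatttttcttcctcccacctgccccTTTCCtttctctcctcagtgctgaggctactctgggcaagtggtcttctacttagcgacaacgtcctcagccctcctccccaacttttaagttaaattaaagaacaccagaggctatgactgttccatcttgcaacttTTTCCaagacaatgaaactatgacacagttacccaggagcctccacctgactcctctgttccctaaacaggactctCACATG
Acp5 promoter: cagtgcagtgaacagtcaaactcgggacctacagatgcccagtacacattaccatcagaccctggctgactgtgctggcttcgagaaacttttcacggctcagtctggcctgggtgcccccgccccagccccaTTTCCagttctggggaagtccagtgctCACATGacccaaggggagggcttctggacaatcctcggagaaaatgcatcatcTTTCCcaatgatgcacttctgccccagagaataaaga
The *Oscar* window held 3 NFAT cores and 1 E-box, the *Acp5* window shown 2 and 1, and the *Ctsk* window neither. The *Acp5* windows not shown held 1 NFAT core each and no E-box. An NFAT core was present in 55.6% and this E-box in 12.3% of 32851 promoter windows of the same length, searched on both strands. The AP-1 motif TGANTCA (6.7% of windows) and the E-box CACGTG (6.0%) were in none of the promoter windows at hand for the members.

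In resting MH-S cells *Tnfrsf11a*, *Nfatc1*, *Dcstamp* and *Ocstamp* were already present, while the other 6 members were near 0. Per kilobase of transcript, M0 levels were 9.77 CPM for *Dcstamp*, 6.65 for *Tnfrsf11a*, 5.84 for *Ocstamp* and 2.51 for *Nfatc1*. *Atp6v0d2* stood at 0.305 CPM per kilobase, and *Ctsk*, *Acp5* and *Src* at 0.0827, 0.0303 and 0.0178. *Oscar* and *Itgb3* had 0 counts in all 3 M0 libraries. The 4 members named first therefore had a substantial level before any treatment.

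**Figure D1:**
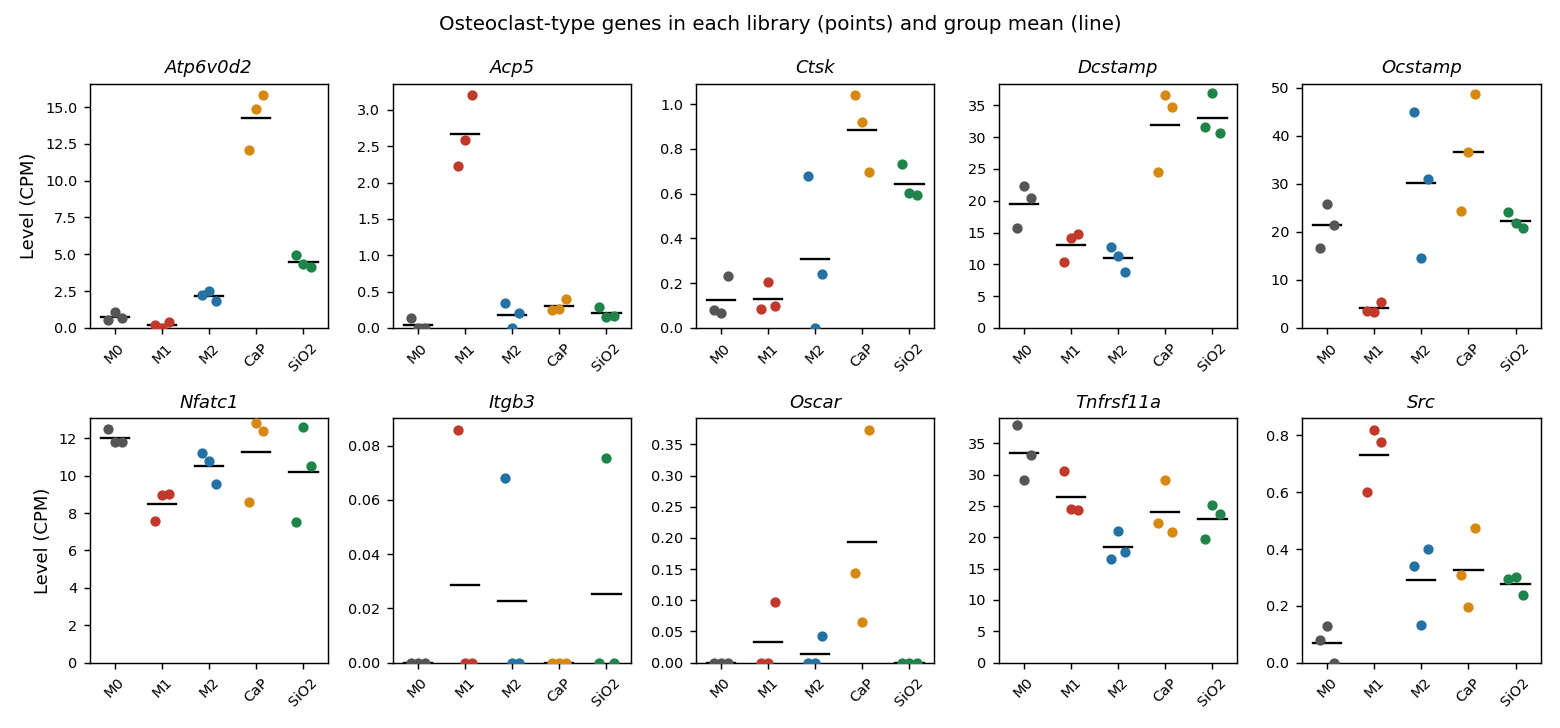
Level of each member in CPM (vertical axis from 0, scaled per gene) in the 3 libraries of each group (points) with the group mean (line). *Atp6v0d2* separates the CaP libraries (12.1 to 15.8 CPM) from all others, the means of *Nfatc1* and *Tnfrsf11a* are highest in M0, and *Acp5* and *Src* are highest in M1.

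*Atp6v0d2* encodes a d subunit of the membrane sector of the vacuolar proton pump and is required for efficient fusion of osteoclast precursors. Its level was 12.1, 14.9 and 15.8 CPM in the CaP libraries, 4.98, 4.31 and 4.12 CPM in the SiO2 libraries and 0.526, 1.10 and 0.694 CPM in M0. M2 libraries had 2.25, 2.50 and 1.81 CPM, and M1 libraries 0.172, 0 and 0.388 CPM. The order CaP, SiO2, M2, M0, M1 had no overlap between any neighbouring groups. The means were 14.3 ± 1.92 CPM with CaP, 4.47 ± 0.457 with SiO2, 2.19 ± 0.346 in M2, 0.775 ± 0.298 in M0 and 0.187 ± 0.194 in M1 (SD, n = 3). On the log2 scale the level with CaP microrods was 4.29 above M0 and that with SiO2 microrods 2.62 above M0, and CaP stood 1.67 above SiO2. Leaving out each library in turn kept these differences between 3.88 and 4.64, between 2.22 and 2.97, and between 1.58 and 1.77.

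The levels of *Atp6v0d2* in M1 and M2 did not choose it, but its M0 libraries did, and the tests against M0 use the same 3 libraries, so their p-values are not independent of the choice. It rose with IL-4 by 1.51 on the log2 scale (SE 0.39, edgeR adjusted p = 0.0388), and this call was lost in 10 of 15 fits that left out 1 library, with adjusted p between 0.0206 and 0.296. In M1 it was lower by a log2 difference of -2.10 (SE 0.68), which missed the edgeR threshold (adjusted p = 0.0504) and passed that of DESeq2 (adjusted p = 0.0118). DESeq2 called 16.8% of all genes in M1 and 5.97% in M2.

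The ubiquitous paralogue *Atp6v0d1* stood far above *Atp6v0d2* in every group. Per kilobase it had 31.9 CPM in M0, 54.0 with CaP and 61.4 with SiO2, where *Atp6v0d2* had 0.305, 5.62 and 1.76. *Atp6v0d1* was higher than M0 by log2 0.77 with CaP (SE 0.29, edgeR adjusted p = 0.212) and 0.95 with SiO2 (SE 0.29, edgeR adjusted p = 0.377), and passed in neither. The coding sequences of the pair were 65.7% identical over the alignment and their longest identical run was 17 bases.

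The other members were compared with M0 in a model of the 9 M0, CaP and SiO2 libraries. Of the 9, 5 passed the filter on low counts (*Ctsk*, *Dcstamp*, *Ocstamp*, *Nfatc1* and *Tnfrsf11a*), and *Acp5*, *Itgb3*, *Oscar* and *Src* did not. With CaP microrods 1 of the 5, *Ctsk*, rose and 0 fell. *Ctsk* passed the filter only through its rod libraries and so could be tested only because it was high there. Over all 16621 genes edgeR called 0.289% higher and 0.120% lower. With SiO2 microrods 0 of the 5 passed in either direction, against 0.0541% of all genes called higher and 0.00602% lower. At an unadjusted p under 0.05 the counts were 4 of 5 and 3 of 5, beside 2985 and 1540 of all 16621 genes. DESeq2 called 0 of the 5 in either comparison, where it called 4.05% and 0.806% of all genes. It gave *Ctsk* no adjusted p with CaP, so that *Ctsk* could not be called there. Both comparisons share the 3 M0 libraries.

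Neither receptor gene passed a test with rods, and 1 of them, *Oscar*, was too low to be tested. *Tnfrsf11a*, the gene of RANK, had 37.9, 29.2 and 33.2 CPM in M0, 22.3, 29.1 and 20.9 with CaP, and 19.8, 25.1 and 23.7 with SiO2. All 6 rod libraries were below all M0 libraries. The log2 differences of -0.48 (SE 0.19, edgeR adjusted p = 0.230) and -0.55 (SE 0.19, edgeR adjusted p = 0.438) did not pass. Of all 16621 genes, 10.1% with CaP and 8.87% with SiO2 were lower than M0 without overlap. *Oscar*, a collagen-binding co-receptor that signals through an ITAM adaptor, had 7, 1 and 15 counts in the CaP libraries and 0 counts in every M0 and SiO2 library. Over the group that was at least 4.57-fold higher than M0 and at least 4.34-fold higher than SiO2, set against a floor of 3 counts over the whole group. Its CaP mean remained low, at 0.194 CPM, and M1 and M2 libraries held at most 3 counts.

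*Nfatc1*, the transcription factor at the centre of the programme, showed no detectable difference with either rod. Its levels were 12.5, 11.8 and 11.8 CPM in M0, 8.58, 12.8 and 12.4 with CaP, and 7.53, 12.6 and 10.5 with SiO2. The groups overlapped. The log2 difference was -0.11 with CaP (95% interval -0.63 to 0.42, edgeR adjusted p = 0.846) and -0.24 with SiO2 (-0.78 to 0.29, edgeR adjusted p = 0.828). A transcript on the opposite strand overlaps *Nfatc1* but held at most 5 counts in any group.

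The fusion genes *Dcstamp* and *Ocstamp*, which encode the multi-pass membrane proteins DC-STAMP and OC-STAMP, stood higher with CaP microrods without passing the test. *Dcstamp* had 15.7, 22.3 and 20.5 CPM in M0, 24.5, 36.7 and 34.7 with CaP, and 31.6, 37.0 and 30.6 with SiO2. All rod libraries were above all M0 libraries, by log2 0.72 with CaP (SE 0.21, edgeR adjusted p = 0.144) and 0.77 with SiO2 (SE 0.21, edgeR adjusted p = 0.339). Of all 16621 genes, 7.27% with CaP and 9.10% with SiO2 were higher than M0 without overlap. *Ocstamp* had 16.7, 25.8 and 21.5 CPM in M0, 24.4, 36.6 and 48.6 with CaP, and 24.2, 21.9 and 20.7 with SiO2. Its SiO2 libraries lay within the range of M0 (log2 0.07, 95% interval -0.52 to 0.66), and its CaP libraries overlapped M0 at the lower end (log2 0.78, SE 0.26, edgeR adjusted p = 0.179). CaP replicate 1 was the lowest CaP library for both genes, and without it *Dcstamp* (adjusted p = 0.0441) and *Ocstamp* (adjusted p = 0.0473) both passed against M0 in edgeR. That fit called 743 of all 16639 genes, where the fit with all 9 libraries called 48 higher and 20 lower of 16621.

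Among the resorption genes, *Ctsk* was the member that passed. It encodes cathepsin K, the collagen-degrading protease of osteoclasts. Its counts were 3, 1 and 2 in M0, 51, 14 and 28 with CaP, and 15, 8 and 15 with SiO2, or 0.125, 0.887 and 0.644 CPM in the mean. Every rod library was above every M0 library, which held for 7.27% of all genes with CaP and 9.10% with SiO2. The log2 difference was 3.12 with CaP (SE 0.47, edgeR adjusted p = 0.0165) and 2.66 with SiO2 (SE 0.52, edgeR adjusted p = 0.112). As pooled counts, the ratio to M0 was 9.23 with CaP (exact 95% interval 4.08 to 25.8, counting error only) and 6.67 with SiO2 (2.80 to 19.3). The CaP call in edgeR was lost without M0 replicate 1 (adjusted p = 0.244), without CaP replicate 2 (adjusted p = 0.0531) and with both M0 replicate 3 and SiO2 replicate 2 left out, which stood apart on a principal component (adjusted p = 0.0628). DESeq2 gave no adjusted p for it with CaP.

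*Acp5*, the gene of tartrate-resistant acid phosphatase (TRAP), the classical stain for osteoclasts, was too low to be tested with rods. It had 5, 0 and 0 counts in M0, 12, 4 and 16 with CaP, and 6, 2 and 4 with SiO2. The pooled ratio to M0 was 3.81 with CaP (exact 95% interval 1.47 to 12.5) and 2.53 with SiO2 (0.829 to 9.16). The mean with CaP, 0.302 CPM, was well under the 2.68 CPM of M1.

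Of the attachment genes, *Itgb3*, the β3 chain of the osteoclast vitronectin receptor, had 0 or 1 count in every library of the series. *Src*, the kinase needed for the ruffled border, had 3, 2 and 0 counts in M0, 15, 3 and 19 with CaP, and 6, 4 and 6 with SiO2. Its pooled ratio to M0 was 4.41 with CaP (exact 95% interval 1.73 to 14.4) and 3.37 with SiO2 (1.18 to 11.8). A difference in *Itgb3* was not detectable at this depth.

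**Figure D2:**
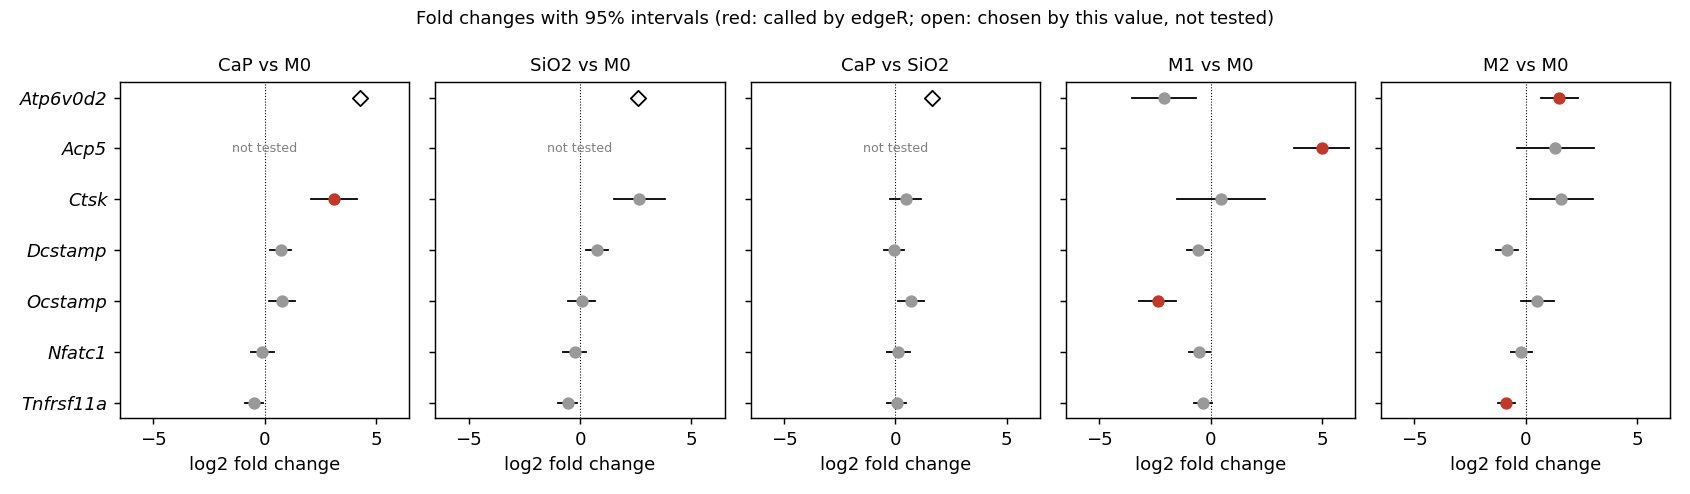
Log2 fold change (horizontal axis) of the members tested in at least 1 comparison, with 95% intervals from edgeR. Red points passed the adjusted p and fold thresholds, and open diamonds are the *Atp6v0d2* values that chose it, at 4.29, 2.62 and 1.67, drawn without an interval.

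Between the 2 kinds of rod, 0 of the 5 tested members passed, where 0.0180% of all genes were called higher with CaP and 0.00602% lower by edgeR, and 0.0963% by DESeq2, which also called 0 members. *Ocstamp* alone had an unadjusted p under 0.05 in edgeR (adjusted p = 1.00). Its 3 CaP libraries, at 24.4 to 48.6 CPM, were all above the 3 SiO2 libraries, at 20.7 to 24.2 CPM, with a log2 difference of 0.71 (95% interval 0.13 to 1.29). The CaP libraries were all above the SiO2 libraries for 3.41% of all genes. The interval was -0.51 to 0.41 for *Dcstamp*, -0.23 to 1.15 for *Ctsk*, -0.39 to 0.66 for *Nfatc1* and -0.35 to 0.49 for *Tnfrsf11a*. The rods differ in mineral and, as the paper states, in their number at the same mg/mL. The paper also reports SiO2 microrods as more cytotoxic. These differences cannot be told apart here, and the intervals do not show that the rods act alike.

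In M1 *Acp5* rose and *Ocstamp* fell, and in M2 *Atp6v0d2* rose and *Tnfrsf11a* fell. Both stimuli were compared with M0 in a model of all 15 libraries, in which 7 members passed the filter, *Acp5* only through its M1 libraries. In M1, 1 of the 7 rose and 1 fell, where 9.70% of all 16654 genes were called higher and 4.37% lower. In M2, 1 rose (*Atp6v0d2*, chosen in part on the same M0 libraries) and 1 fell, where 2.00% were called higher and 2.13% lower.

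*Acp5* rose in M1, from 5, 0 and 0 counts in M0 to 26, 38 and 33 counts. The log2 difference was 4.99 (SE 0.58, edgeR adjusted p = 1.07e-05), and as pooled counts the ratio was 32.9 (exact 95% interval 13.6 to 104). *Acp5* passed the filter on low counts only through its M1 libraries, and so could be tested only because it was high there. An antisense transcript, 6530413G14Rik, overlaps it. The antisense transcript went from 1 count in M0 to 13 in M1, against 5 and 97 for *Acp5*, and in libraries without strand the reads of the pair cannot be told apart. *Src* also stood highest in M1, at 7, 12 and 8 counts (pooled ratio 9.16, exact 95% interval 3.48 to 30.4), and was not tested.

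*Ocstamp* fell in M1, to 3.52, 3.41 and 5.43 CPM from 16.7, 25.8 and 21.5 in M0. The log2 difference of -2.38 (SE 0.39, edgeR adjusted p = 0.00104) passed in every fit that left out 1 library. *Dcstamp* was lower in M1 by log2 -0.56 (edgeR adjusted p = 0.115) and *Nfatc1* by -0.50 (edgeR adjusted p = 0.152), each without overlap with M0 and without passing, and *Tnfrsf11a* overlapped M0 (-0.34, 95% interval -0.73 to 0.05). In M2, *Ocstamp* ranged from 14.6 to 44.9 CPM and overlapped M0 (log2 0.52, SE 0.34, edgeR adjusted p = 0.487).

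*Tnfrsf11a* fell in M2, to 16.6, 21.0 and 17.7 CPM from 37.9, 29.2 and 33.2 in M0. The log2 difference was -0.87 (SE 0.19, edgeR adjusted p = 0.0164), and the call was lost in 3 of 15 fits that left out 1 library. *Dcstamp* had 12.7, 11.3 and 8.76 CPM in M2, below all M0 libraries (log2 -0.85, SE 0.23), which missed the edgeR threshold (adjusted p = 0.0526) and passed in DESeq2 (adjusted p = 0.00649). Of all 16654 genes, 8.17% were lower in M2 than in M0 without overlap. *Ctsk* in M2 overlapped M0, at 10, 0 and 17 counts (log2 1.59, SE 0.68, edgeR adjusted p = 0.225).

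Beyond the members, 113 other genes of the pathway were taken in 9 lists, of which 94 were tested in the rod model. With CaP microrods 4 of the 94 passed, of which the 3 that rose are described here (35 at an unadjusted p under 0.05, and 15 in DESeq2), with a median log2 difference of 0.29 against 0.06 for all genes. With SiO2 microrods 0 passed (26 at an unadjusted p under 0.05, and 3 in DESeq2), with a median of 0.23 against -0.02. Between the rods 0 passed (3 unadjusted, and 1 in DESeq2). Over all 16621 genes the unadjusted counts were 2985 with CaP, 1540 with SiO2 and 310 between the rods, and the DESeq2 counts 673, 134 and 16. By edgeR, 48 of all genes were called higher and 20 lower with CaP, 9 and 1 with SiO2, and 3 and 1 between the rods.

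*Csf1*, the gene of M-CSF, the growth factor that osteoclast precursors need beside RANKL, rose with CaP. It had 0.499, 0.260 and 0.463 CPM in M0, 3.17, 5.51 and 6.74 with CaP, and 0.684, 1.44 and 0.950 with SiO2. The CaP libraries did not overlap any other group (log2 3.56 against M0, SE 0.44, edgeR adjusted p = 0.0105). Its M0 libraries held 19, 4 and 4 counts. The CaP libraries were all above M0 for 7.27% of all genes, and all above SiO2 for 3.41%. *Csf1* passed the filter on low counts only through its rod libraries, and so could be tested only because it was high there. *Gpnmb*, a lysosomal glycoprotein gene of the MITF family's targets, rose from 88.8 ± 21.2 to 289 ± 102 CPM (log2 1.71, edgeR adjusted p = 0.0423). *Spp1*, the gene of osteopontin, a ligand of the β3 integrin, rose from 4902 ± 520 to 9381 ± 355 CPM (log2 0.94, edgeR adjusted p = 0.0174). With SiO2 *Gpnmb* had 313 ± 19.9 CPM (log2 1.82), which did not pass in edgeR (adjusted p = 0.0723) and passed in DESeq2 (adjusted p = 2.72e-06). DESeq2 called 0.806% of all genes with SiO2. The *Csf1* call was lost without M0 replicate 1 (adjusted p = 0.107) among the 9 fits that left out 1 library, while *Gpnmb* kept its call in 2 and *Spp1* in 3 of them, and the count over all lists went from 0 to 22, highest without CaP replicate 1. In that last fit edgeR called 743 of all 16639 genes with CaP.

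The lists nearest to *Atp6v0d2* in function were those of the proton pump and the lysosome. Of 18 other pump subunits tested, 0 passed with either rod, while 16 with CaP and 17 with SiO2 had a log2 difference above 0 (medians 0.29 and 0.38, 5 and 6 at an unadjusted p under 0.05, and 1 and 0 called by DESeq2). Over all 16621 genes, 9173 with CaP and 7887 with SiO2 were above 0, and 2985 and 1540 had an unadjusted p under 0.05. The 14 lysosomal genes responsive to MITF and TFE factors had medians of 0.67 and 0.59, with 1 called with CaP (*Gpnmb*) and 0 with SiO2. Of these 14, 10 with CaP and 8 with SiO2 had an unadjusted p under 0.05 in edgeR. DESeq2 called 4 and 2 of them, beside 4.05% and 0.806% of all genes. The RANK signalling list, of 13 tested genes, had medians of 0.03 and -0.17, with *Csf1* as its single call. Of 8 ITAM co-receptor genes, 8 transcription factor genes, 7 resorption genes and 12 fusion genes, 0 passed with either rod in edgeR. Calls by edgeR were rare among all genes: for CaP 0.289% rose and 0.120% fell, for SiO2 0.0541% rose and 0.00602% fell. At such shares, 0 calls in lists of 7 to 18 genes do not show that these genes were unchanged. With CaP, DESeq2 called 1 transcription factor gene higher, and 1 fusion gene higher and 1 lower. It called 4.05% of all genes there.

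**Figure D3:**
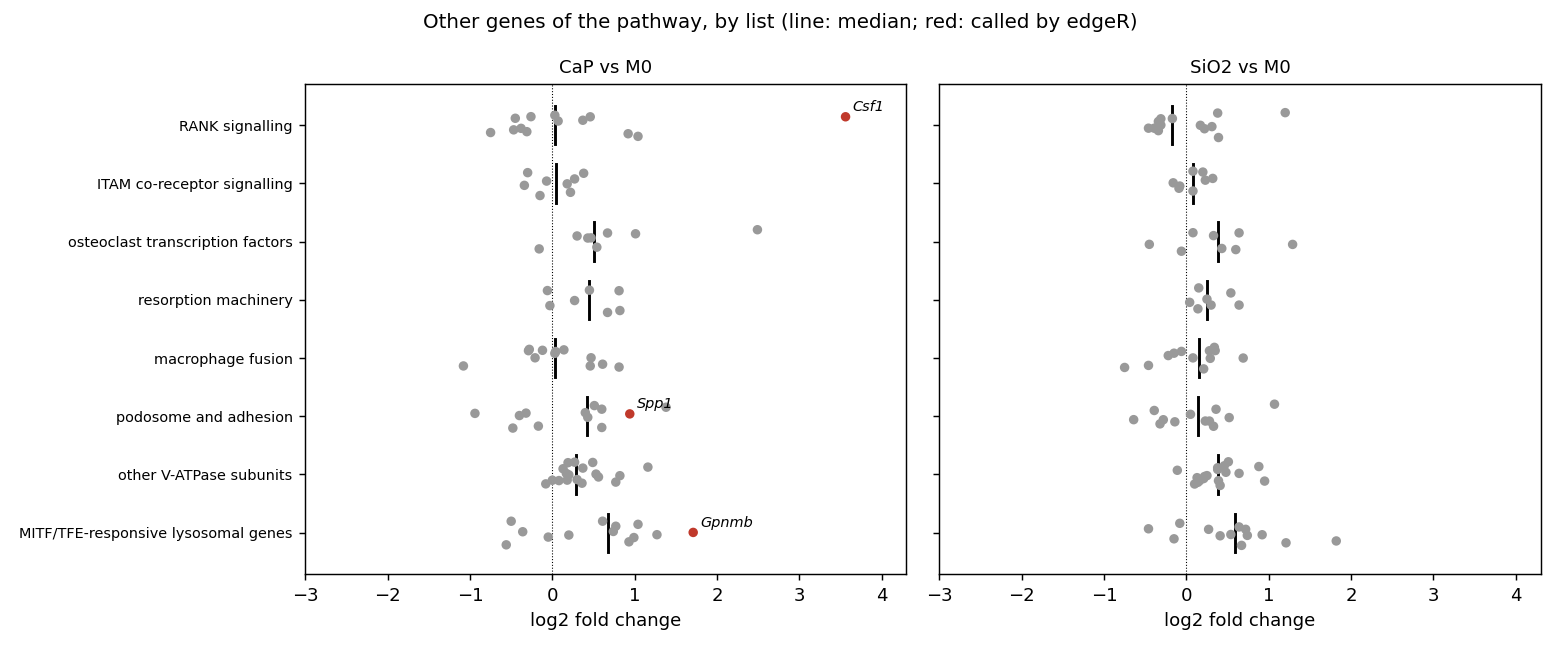
Log2 fold change (horizontal axis) of the other pathway genes in 8 of the lists, for CaP against M0 (left) and SiO2 against M0 (right), with the median of the whole list as a line and genes called by edgeR in red. The 3 labelled genes, *Csf1*, *Spp1* and *Gpnmb*, are all in the CaP panel, and the pump and lysosomal medians lie above 0 in both. *Gpnmb* has a log2 fold change of 1.82 in the SiO2 panel, where edgeR did not call it.

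In M1, 17 of 95 genes of these lists rose and 8 fell, beside 1615 and 727 of all 16654 genes. The 2 largest changes in each direction per list included rises of *Mmp9* (log2 2.88), *Rac2* (1.79), *Nfkb2* (1.49), *Atp6v0a1* (1.42), *Atp6v0d1* (1.38), *Ctsd* (1.37), *Neu1* (1.33), *Blnk* (1.31), *Fos* (1.28), *Itgb2* (1.10), *Syk* (1.09), *Cd47* (1.05) and *Clcn7* (0.89). Genes that fell included *Dock1* (-1.42), *Gpnmb* (-1.01), *Itgb5* (-0.97), *Itgav* (-0.94), *Csf1r* (-0.90), *Ppp3ca* (-0.79) and *Trem2* (-0.77). In M2, *Slc4a2* (1.21) rose, and *Fos* (-2.04), *Spp1* (-1.81), *Mitf* (-1.12), *Itgb5* (-0.97) and *Cd9* (-0.69) fell.

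Genes whose level followed that of *Atp6v0d2* most closely over the 15 libraries were found by Pearson's r of log2 CPM among 11304 genes with a group mean of at least 5 CPM. They were *Jmjd6* (r = 0.94), *Lat* (0.94), *Adm* (0.92), *Echdc3* (0.91) and *Selenbp1* (0.91). *Lat*, which encodes an adaptor of T cell receptor signalling, had means of 1.12 CPM in M0, 0.268 in M1, 1.66 in M2, 6.53 with CaP and 4.49 with SiO2. *Lat* reached 5 CPM only with CaP, where *Atp6v0d2* was highest, and so was a candidate only through that group. *Adm*, the gene of adrenomedullin, had 12.8, 8.71, 22.4, 47.1 and 38.9 CPM in the same order. Of the members, *Ocstamp* was the closest at 0.82, with 40 genes above it, followed by *Ctsk* (0.68), *Dcstamp* (0.65), *Nfatc1* (0.32), *Tnfrsf11a* (-0.36) and *Acp5* (-0.44). *Acp5* was highest in M1, where *Atp6v0d2* was lowest, and its Spearman correlation was -0.13. Outside M1 the *Acp5* means followed the order CaP, SiO2, M2, M0, with overlap between neighbours. The values describe these libraries, which share groups and depth, and they include the rod levels that chose *Atp6v0d2*. Of the 5 genes, 1 stayed among the closest 5 when the M1 libraries were left out.

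**Figure D4:**
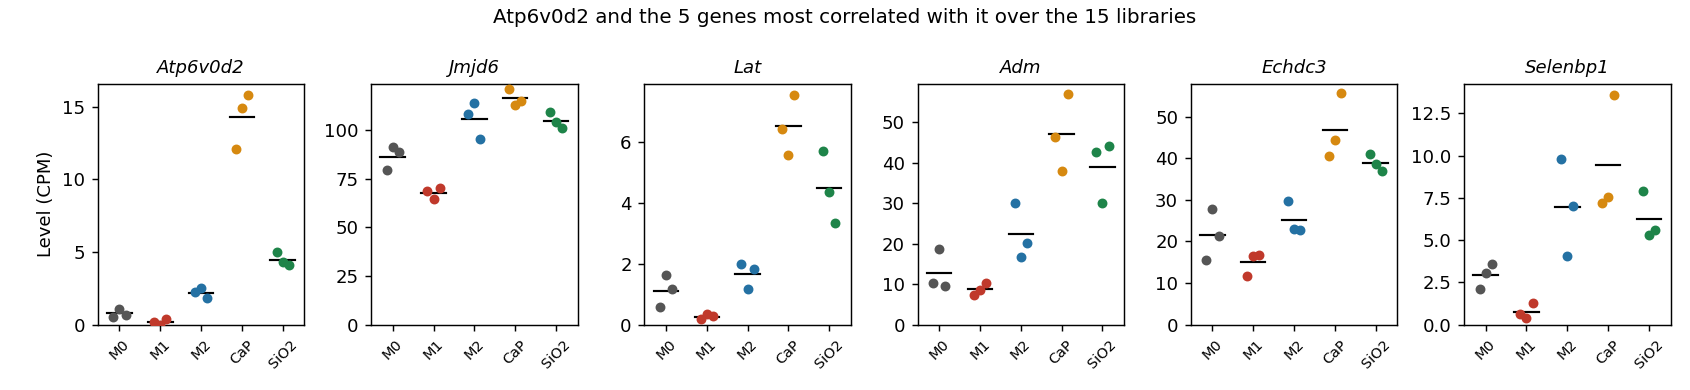
Level in CPM (vertical axis from 0, scaled per gene) of *Atp6v0d2* and the 5 genes most correlated with it, in the 3 libraries of each group (points) with the mean (line). The 5 share its low M1 and high CaP levels, and their CaP and SiO2 means lie closer together than the 14.3 and 4.47 CPM of *Atp6v0d2*.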

How the data were processed

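MH-S cells were sequenced in 5 groups of 3 libraries. The authors processed paired-end Smart-seq2 reads with nf-core/rnaseq (STAR and Salmon, Ensembl annotation) and deposited whole-number counts per Ensembl gene, neither normalised nor filtered, which may be rounded Salmon estimates. Strand and molecular identifiers were not used. Exact intervals of pooled counts cover counting error only, and edgeR intervals also cover the spread between libraries. Symbols for 51487 of 78317 identifiers and transcript lengths came from a mouse annotation of another release.

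Tests were run with edgeR 4.0.16 in R 4.3.3 (filterByExpr by group, TMM, quasi-likelihood test, Benjamini-Hochberg over all genes tested). Calls needed an adjusted p under 0.05 with a log2 fold change beyond 0.5 either way, as in the study. Rod comparisons used 9 libraries and 16621 genes, and M1 and M2 against M0 used 15 libraries and 16654 genes. CPM is relative to the TMM-scaled library size. DESeq2 1.42.0 was an alternative. Errors are SD over 3 libraries or model SE. With 3 libraries per group an exact permutation test cannot go below p = 0.1. The tests were tried on simulated counts.

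The members and lists were chosen with earlier results of these data known. The text names all members, pathway genes called with rods, the 2 largest changes per direction and list among genes called in M1 or M2, the 5 genes most like *Atp6v0d2*, and *Atp6v0d1*. Some pathway genes that this rule takes are not reported here. Alternatives were DESeq2 and its size factors, other filters, a replicate block, thinned counts, other libraries in the model and leaving out each library. The legacy quasi-likelihood, and leaving out the 3 libraries lowest on the second principal component, were chosen after seeing the data.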

Additional observations from a re-analysis of the deposited data

How the results depend on the processing

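The count of members called with CaP microrods against M0, 1 in the report, was 0 with DESeq2, with a minimum of 10 counts per library, with thinned counts and without the 3 libraries lowest on the second principal component (M0 replicate 3, M2 replicate 2 and SiO2 replicate 2), and 0 to 3 when single libraries were left out. DESeq2 gave *Ctsk* no adjusted p in this comparison. The pathway count with CaP, 4, was 15 with DESeq2, 7 without a filter, 2 with the legacy quasi-likelihood, 1 without those 3 libraries, and 0 to 22 when single libraries were left out. Over all genes the calls with CaP were 13 without M0 replicate 1 and 743 without CaP replicate 1. Without a filter the median of all genes shifted to 0.15 with CaP. The pathway count with SiO2, 0, was 3 with DESeq2, 1 without a filter, 1 with all 15 libraries in the model and 0 to 1 without single libraries, and that between the rods, 0, was 1 with DESeq2 and 2 without a filter. In M1, the member count of 2 was 4 without a filter, 1 with at least 10 counts and 2 to 4 without single libraries, and the pathway count of 25 was 11 to 29. In M2, the member count of 2 was 1 without a filter, with thinned counts, with the legacy quasi-likelihood and without the 3 libraries, 0 with only the 6 libraries compared, and 0 to 4 without single libraries. The pathway count in M2, 7, was 13 with DESeq2, 11 without a filter, 1 with only 6 libraries and 3 to 12 without single libraries. Of the 5 genes most like *Atp6v0d2*, 3 stayed with Spearman's correlation, 1 without M1 and 3 to 5 without single libraries. The cause of these shifts was not tested, beyond the fewer genes or libraries that some settings hold.

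Replicate numbers did not pair the libraries. Deviations of same-numbered libraries correlated between -0.70 and 0.60 (median -0.01, 30 pairs), and 8 of 15 libraries correlated best with their own number. With the replicate block the counts of calls were 0 members and 2 pathway genes with CaP, and 1 member in M2. The adjusted p of *Ctsk* with CaP was 0.0526 with the block, and *Ctsk* was not tested with thinned counts or with the minimum of 10 counts.

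Signs turned for values near 0 when single libraries were left out. Between the rods, *Dcstamp* ranged from -0.17 to 0.10 (0.10 without CaP replicate 1, 0.04 without SiO2 replicate 2), and was 0.02 without the 3 libraries. *Nfatc1* ranged from -0.04 (without SiO2 replicate 1) to 0.31, *Tnfrsf11a* from -0.09 (without CaP replicate 2, and -0.02 without SiO2 replicate 1) to 0.15, and *Atp6v0d1* from -0.37 to 0.07 (without CaP replicate 1). Against M0, *Nfatc1* with CaP ranged from -0.22 to 0.05 (without CaP replicate 1), *Ocstamp* with SiO2 from -0.10 (without M0 replicate 1) to 0.24, and *Ctsk* in M1 from -0.10 (without M1 replicate 2) to 0.82. *Acp5*, *Ctsk*, *Oscar* and *Src* had 5 counts or fewer in every M0 library and *Itgb3* at most 1 in any library, so depth limits their values there.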
